A study of Homo sapiens with 18 samples.

Results

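The cholesterol and fatty acid synthesis genes are a set of 29 gene symbols taken by name, with no threshold on their values, from the 41120 symbols of the count table. They fall into the mevalonate pathway (7 genes), the sterol-specific steps that follow it (11), the SREBP system with a sterol carrier (4) and fatty acid synthesis (7). Of the 29, 28 passed the filter on low counts and were tested, and CYP51A1 did not. They were measured as 3′ messenger RNA tags in 18 libraries of SCC154-hfm and FADU-hfm, established head and neck squamous carcinoma lines, called SCC154 and FaDu here. SCC154 is HPV-positive and FaDu HPV-negative, so that HPV status and every other difference between the lines cannot be told apart with 1 line of each kind. All cells, the non-hypoxic ones included, carried a transduced hypoxia-fate mapping reporter and had been grown as spheroids. Cells that had met low oxygen there were GFP-positive (post-hypoxic), the rest DsRed-positive (non-hypoxic), and both were sorted apart and cultured in normoxia before RNA was taken. The libraries were 4 of post-hypoxic SCC154 (replicates 2 to 5), 5 of non-hypoxic SCC154, 5 of post-hypoxic FaDu and 4 of non-hypoxic FaDu (replicates 1 to 4).

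Cells build cholesterol from acetyl-CoA through mevalonate and squalene, and build fatty acids from the same precursor through malonyl-CoA. The genes of both routes are switched on by the SREBP transcription factors, which are held in the endoplasmic reticulum by INSIG proteins when sterols are plentiful and are cut free when sterols run low. In squamous epithelium these lipids also feed the permeability barrier, and many carcinomas make fatty acids themselves.

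The stretch around the start of transcription is where SREBPs and their partner NF-Y bind in known target genes. It is shown for 5 members, each of which held a motif searched for below. ACACA and SREBF1, which differed more between the lines than HMGCS1 or SREBF2, held none and are not printed. RefSeq's windows of 300 bases (250 before to 50 after the start, GRCh38.p14) matched 25 of the 29 members; ACAT2, FASN, FDFT1 and SQLE are named only. The windows of HMGCS1 (chr5:43313363-43313662, minus strand), MVK (chr12:109573544-109573843, plus strand), INSIG1 (chr7:155297628-155297927, plus strand), SCD (chr10:100346983-100347282, plus strand) and SREBF2 (chr22:41832855-41833154, plus strand) read 5′ to 3′ as follows. Capitals mark the searched motifs on either strand: the NF-Y motif CCAAT, whose other strand reads ATTGG; the E-box, which is CACGTG; and the SREBP element, TCACNCCAC. Copies of different motifs did not overlap in the member windows.
HMGCS1: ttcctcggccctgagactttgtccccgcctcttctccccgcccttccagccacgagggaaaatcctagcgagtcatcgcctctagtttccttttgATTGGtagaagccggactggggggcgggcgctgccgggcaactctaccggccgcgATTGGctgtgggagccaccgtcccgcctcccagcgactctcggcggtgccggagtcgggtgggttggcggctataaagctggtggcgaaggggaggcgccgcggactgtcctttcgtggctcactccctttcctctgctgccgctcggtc
MVK: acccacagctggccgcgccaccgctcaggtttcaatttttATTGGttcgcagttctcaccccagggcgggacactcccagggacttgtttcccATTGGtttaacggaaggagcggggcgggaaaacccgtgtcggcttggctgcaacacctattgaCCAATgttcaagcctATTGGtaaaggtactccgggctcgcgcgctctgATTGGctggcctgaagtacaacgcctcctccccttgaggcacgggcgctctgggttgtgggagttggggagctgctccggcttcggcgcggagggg
INSIG1: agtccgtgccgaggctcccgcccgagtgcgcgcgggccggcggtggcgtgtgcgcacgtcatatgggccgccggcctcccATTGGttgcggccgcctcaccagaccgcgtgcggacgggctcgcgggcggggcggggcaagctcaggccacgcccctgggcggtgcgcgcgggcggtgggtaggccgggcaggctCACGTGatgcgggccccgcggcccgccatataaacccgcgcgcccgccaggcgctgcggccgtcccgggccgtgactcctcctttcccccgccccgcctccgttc
SCD: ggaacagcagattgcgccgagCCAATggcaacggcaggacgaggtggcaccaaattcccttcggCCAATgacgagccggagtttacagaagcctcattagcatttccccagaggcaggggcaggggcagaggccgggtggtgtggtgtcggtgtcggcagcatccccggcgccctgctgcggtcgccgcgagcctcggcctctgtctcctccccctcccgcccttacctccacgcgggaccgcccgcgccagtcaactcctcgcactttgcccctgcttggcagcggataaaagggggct
SREBF2: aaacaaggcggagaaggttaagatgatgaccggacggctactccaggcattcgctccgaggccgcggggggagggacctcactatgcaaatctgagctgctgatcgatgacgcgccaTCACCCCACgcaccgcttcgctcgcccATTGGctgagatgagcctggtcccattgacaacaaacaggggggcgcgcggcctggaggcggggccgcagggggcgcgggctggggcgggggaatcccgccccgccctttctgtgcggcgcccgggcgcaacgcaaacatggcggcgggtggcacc

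CCAAT stood in 17 of the 25 member windows (68.0%), against 35.7% of all 27305 RefSeq windows of this length. NSDHL and MVK had 5 copies each, the most among the members. The E-box stood in LSS, SC5D and INSIG1 (12.0% of the members, 7.43% of all windows). The SREBP element stood only in SREBF2, its first base 133 bases before the start, as TCACCCCAC (4.0% of the members, 1.15% of all windows). In 8 members, SREBF1, ACACA, PMVK, IDI1, CYP51A1, FADS1, FADS2 and ELOVL6, none of these letters stood in the window. A single window per gene was searched, for members and all genes alike, so other start sites were not covered. Only the exact letters given above were searched, so a site with other letters was not counted. The window of IDI1 (chr10:1056655-1056954, minus strand) lies outside that gene's bounds in GENCODE v29, which end at 1049170. A match is a description of the letters and no evidence of binding.

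Library totals lay between 1654719 and 2503573 counts, so that 1 CPM, the unit of counts scaled to library size with TMM factors, stood for 1.68 to 2.44 counts. In squamous markers all 10 listed genes were tested, with summed levels of 1840 to 2562 CPM per library. These sums hide opposite differences between the lines. By the edgeR test described below, 6 of the 10 were lower and 2 higher in SCC154 than in FaDu in each fraction. In non-hypoxic cells KRT5 was 8.32-fold lower and KRT6A 5.4-fold higher in SCC154. Of all tested genes 69.7% were called in post-hypoxic and 68.9% in non-hypoxic cells. None of the listed fibroblast, endothelial or leukocyte markers passed the filter, and their sums reached at most 5.80, 5.18 and 4.99 CPM. The labels do not say whether replicates were separate cultures; every p-value here therefore speaks of the spread among these libraries alone, and that spread may be technical. Fewer cells of a type and less RNA per cell cannot be told apart in such bulk samples.

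In the main fit, which pairs no libraries, no member differed past the threshold between post-hypoxic and non-hypoxic cells of either line. Most members differed between the lines. In SCC154 a replicate block per line called ELOVL6 and SCD, and DESeq2 called ELOVL6, as given below. The main fit used edgeR's quasi-likelihood test without blocks and a Benjamini-Hochberg adjusted p under 0.05 over 12291 genes. It called 0 of 28 members between post-hypoxic and non-hypoxic SCC154 cells, where it called 0.757% of all tested genes (0.334% higher, 0.423% lower). In FaDu 0 of 28 members were called, as were 0% of all genes. Between SCC154 and FaDu, 22 of 28 members were called in post-hypoxic cells, 18 lower and 4 higher in SCC154, and 20 in non-hypoxic cells, 17 lower and 3 higher. Of all tested genes 69.7% were called in the post-hypoxic comparison (34.9% lower, 34.8% higher) and 68.9% in the non-hypoxic one (34.5% lower, 34.5% higher). The share of members called was near that of all genes in non-hypoxic cells (20 of 28). In post-hypoxic cells it was somewhat above (22 of 28), but leaving out single libraries gave 20 to 22 members there. The lean was toward lower: the median log2 fold change of the members was -0.50 in post-hypoxic and -0.69 in non-hypoxic cells, against 0.01 and -0.01 over all genes. In the same direction in both fractions, 19 members were called, 16 lower and 3 higher (of all genes 7393, 3697 lower and 3696 higher). The fractions share no library but come from the same lines and the same fit, and same-numbered FaDu libraries deviated together. The comparisons are therefore not independent.

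**Figure D1:**
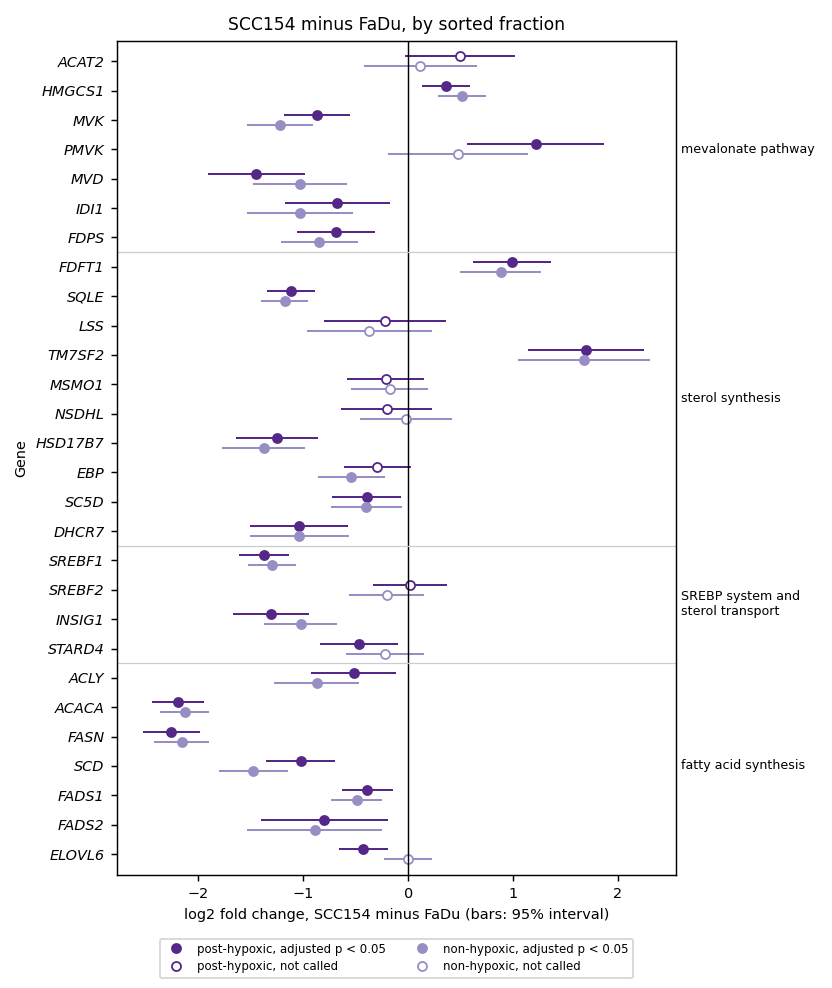
Log2 fold change of SCC154 over FaDu (x axis) for each of the 28 tested members (rows, grouped by role), in post-hypoxic and non-hypoxic cells; bars are 95% intervals and filled points have an adjusted p under 0.05. The fatty acid synthesis genes FASN and ACACA lie near -2, and TM7SF2, FDFT1 and HMGCS1 lie to the right of 0 in both fractions.

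Fatty acid synthesis held the 2 largest differences between the lines, those of FASN and ACACA: 7 of 7 genes were lower in post-hypoxic SCC154 cells (median log2 fold change -0.80) and 6 of 7 in non-hypoxic ones (-0.89). FASN, the multi-enzyme that builds palmitate, had 64.7, 55.5, 80.8 and 78.5 CPM in post-hypoxic SCC154 libraries, against 325, 334, 344, 345 and 330.4 CPM in post-hypoxic FaDu libraries. In non-hypoxic cells it had 98.2, 74.4, 57.5, 75.9 and 74.6 CPM in SCC154, against 283, 359.7, 344 and 379 CPM in FaDu. Every SCC154 library lay far below every FaDu library. FASN was 4.78-fold lower in post-hypoxic SCC154 cells, a log2 fold change of -2.26 (SE 0.13, adjusted p = 6.3e-13 by edgeR), and 4.47-fold lower in non-hypoxic ones, -2.16 (SE 0.13, adjusted p = 6.44e-13 by edgeR). ACACA encodes the acetyl-CoA carboxylase that supplies FASN with malonyl-CoA. Its level was 38.1, 35.8, 36.1 and 31.3 CPM in post-hypoxic SCC154 and 163, 170.3, 163, 155 and 160.1 CPM in post-hypoxic FaDu libraries. The non-hypoxic libraries had 46.9, 29.5, 38, 34.3 and 41 CPM in SCC154 and 154, 164, 163 and 184 CPM in FaDu, so that again no library of one line reached the other. The log2 fold changes of ACACA were -2.20 (SE 0.12, adjusted p = 1.69e-13 by edgeR) in post-hypoxic and -2.13 (SE 0.11, adjusted p = 1.4e-13 by edgeR) in non-hypoxic cells.

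SCD places the first double bond into saturated fatty acids. Its level was 254, 152, 297 and 191 CPM in post-hypoxic SCC154 libraries, against 352, 470.3, 498, 496 and 468 CPM in post-hypoxic FaDu libraries. Among non-hypoxic cells it had 154, 158, 153, 196 and 178 CPM in SCC154, against 356, 580.1, 469.7 and 469.7 CPM in FaDu. The lines did not overlap, but the post-hypoxic SCC154 libraries were more widely spread than the non-hypoxic ones, with replicates 2 and 4 above all 5 of those. SCD was 2.04-fold lower in post-hypoxic SCC154 cells (-1.03, adjusted p = 5.31e-06 by edgeR) and 2.79-fold lower in non-hypoxic ones (-1.48, adjusted p = 1.99e-08 by edgeR).

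The other 4 fatty acid genes differed less. ACLY, which splits citrate into the acetyl-CoA for both routes, had 51.3 to 126 CPM in post-hypoxic SCC154 and 99.2 to 145 CPM in post-hypoxic FaDu libraries, and 54 to 81.5 against 83.2 to 149 CPM in non-hypoxic SCC154 and FaDu. These ranges overlapped in post-hypoxic cells only. ACLY was called lower in both, -0.52 (SE 0.20, adjusted p = 0.022 by edgeR) and -0.87 (SE 0.20, adjusted p = 0.000427 by edgeR). The post-hypoxic call was lost without post-hypoxic SCC154 replicate 3 (-0.35) or 5 (-0.45) or post-hypoxic FaDu replicate 4 (-0.46). FADS1, a desaturase of long polyunsaturated fatty acids, had 227 to 362 CPM in post-hypoxic SCC154 against 309 to 409 CPM in post-hypoxic FaDu, and 231 to 283 CPM in non-hypoxic SCC154 against 300 to 394 CPM in non-hypoxic FaDu. Its log2 fold changes were -0.39 (SE 0.12, adjusted p = 0.00554 by edgeR) and -0.49 (SE 0.12, adjusted p = 0.000796 by edgeR), both below a 1.5-fold difference. FADS2, which acts before FADS1 in that route, was expressed at 4.5 to 9.43 CPM in post-hypoxic SCC154 against 8.28 to 19 CPM in post-hypoxic FaDu, with overlap, and was called lower in both fractions (-0.80 and -0.89). Its post-hypoxic call was lost without SCC154 replicate 2 (-0.61) or FaDu replicate 4 (-0.58), and its non-hypoxic call without FaDu replicate 4 (-0.65). ELOVL6, the elongase that turns palmitate into stearate, was called lower in post-hypoxic SCC154 cells (-0.43, SE 0.11, adjusted p = 0.00194 by edgeR) and had 0.00 in non-hypoxic ones, with a 95% interval of -0.23 to 0.23; whether these differ is the interaction given further on, which did not pass.

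**Figure D2:**
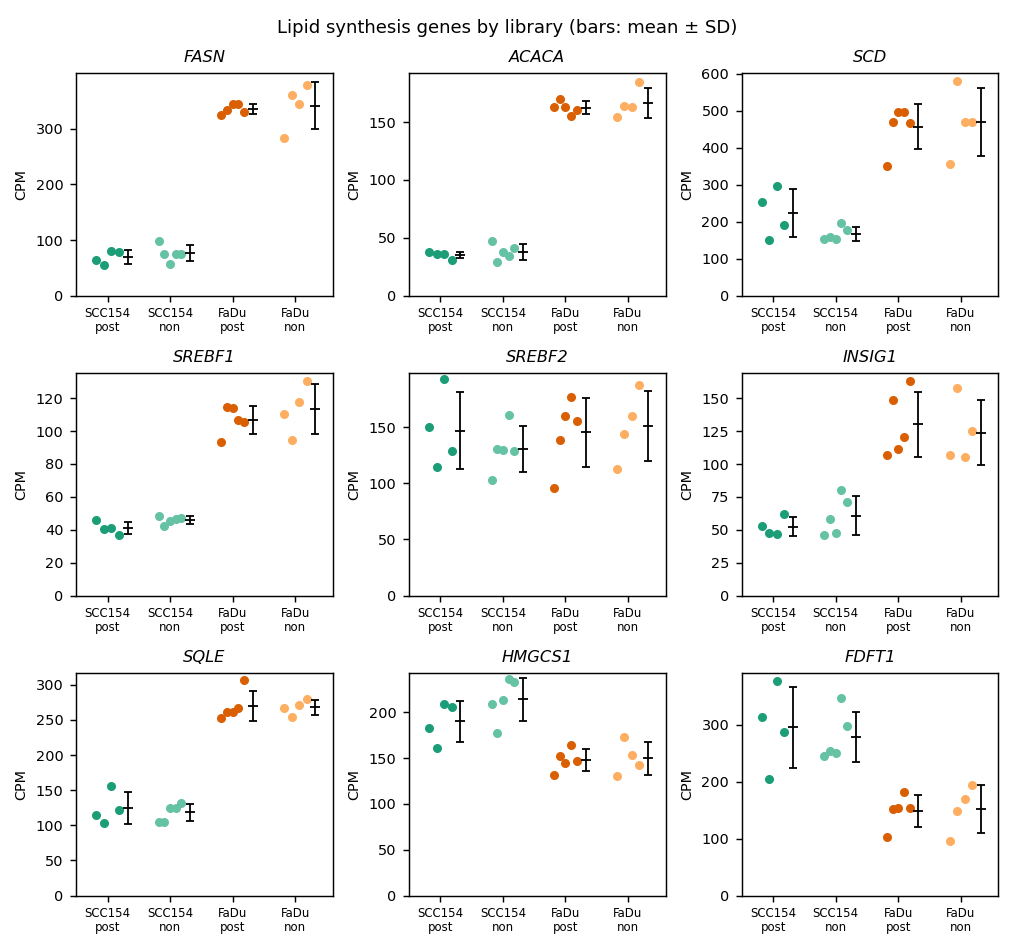
Level in CPM (y axes from 0) of 9 members in each of the 18 libraries; points are libraries in the order of their replicate numbers and bars the mean ± SD of each group (n = 4, 5, 5 and 4 from left to right). For FASN, ACACA, SCD, SREBF1, INSIG1 and SQLE all SCC154 points lie below all FaDu points, for FDFT1 above them, and for SREBF2 the groups overlap.

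The SREBP system differed between the lines in 1 of its 2 transcription factors; of its 4 genes 3 were lower in post-hypoxic (median -0.89) and 2 in non-hypoxic SCC154 cells (-0.62). SREBF1, which encodes the factor tied most to fatty acid genes, had 45.9, 40.6, 41 and 36.8 CPM in post-hypoxic SCC154 libraries, against 93.2, 115, 114, 106 and 106 CPM in post-hypoxic FaDu libraries. Its non-hypoxic levels were 48.4, 42, 45.4, 46.4 and 47.3 CPM in SCC154 and 110.3, 94.5, 118 and 130.5 CPM in FaDu. The lines were clear of each other in both fractions, at 2.6-fold lower (-1.38, SE 0.12, adjusted p = 3.33e-10 by edgeR) and 2.46-fold lower (-1.30, SE 0.11, adjusted p = 5.13e-10 by edgeR) in SCC154. The 3′ end of SREBF1 overlaps that of RAI1 on the other strand, which averaged 88.7 CPM, and the sources used here give no strand setting for the counting, so reads of the 2 genes could not be told apart. SREBF2, whose product acts most on sterol genes, had 149.9, 115, 193 and 129 CPM in post-hypoxic SCC154 libraries, against 95.9, 138, 159, 177 and 156 CPM in post-hypoxic FaDu libraries. In non-hypoxic libraries SREBF2 had 103, 130.5, 130, 161 and 128 CPM in SCC154 and 113, 144, 159.7 and 187 CPM in FaDu. All 4 groups overlapped. The log2 fold changes of SREBF2, 0.01 (95% interval -0.34 to 0.37) and -0.21 (-0.56 to 0.15), did not pass.

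INSIG1, the sterol-dependent anchor of the SREBPs and itself an SREBP target, had 52.8, 47.7, 47.1 and 62.2 CPM in post-hypoxic SCC154 libraries, against 107, 149, 111, 121 and 163 CPM in post-hypoxic FaDu libraries. Its non-hypoxic libraries had 45.9, 58, 47.7, 80.2 and 70.9 CPM in SCC154 and 106, 158, 105 and 125 CPM in FaDu. No SCC154 library reached a FaDu library, and INSIG1 was 2.48-fold lower in post-hypoxic cells (-1.31, SE 0.17, adjusted p = 5.1e-07 by edgeR) and 2.03-fold lower in non-hypoxic cells (-1.02, SE 0.17, adjusted p = 1.06e-05 by edgeR). STARD4, a carrier that moves cholesterol between membranes, had 19.1 to 27.9 CPM in post-hypoxic SCC154 against 23.4 to 36.4 CPM in post-hypoxic FaDu, with overlap. It was called lower in post-hypoxic cells only (-0.47, SE 0.18, adjusted p = 0.0229 by edgeR; non-hypoxic -0.22, adjusted p = 0.278 by edgeR). That call was lost without SCC154 replicate 3 (-0.40) or 4 (-0.41) or FaDu replicate 2 (-0.42) of the post-hypoxic cells.

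The mevalonate pathway was split: of 7 genes, 4 were lower and 2 higher in post-hypoxic SCC154 cells (median -0.68), and 4 lower and 1 higher in non-hypoxic ones (-0.85). HMGCS1, the cytosolic HMG-CoA synthase whose window is printed first above, had 183, 161, 209.5 and 206 CPM in post-hypoxic SCC154 libraries, against 131, 152, 144, 164 and 147 CPM in post-hypoxic FaDu libraries. In non-hypoxic libraries HMGCS1 had 209, 178, 213, 236 and 233 CPM in SCC154 and 130.2, 172, 154 and 143 CPM in FaDu. Post-hypoxic SCC154 replicate 3 lay within the FaDu range, and the non-hypoxic libraries did not overlap. HMGCS1 was 1.28-fold higher in post-hypoxic (0.36, SE 0.11, adjusted p = 0.00536 by edgeR) and 1.43-fold higher in non-hypoxic SCC154 cells (0.51, SE 0.11, adjusted p = 0.000264 by edgeR). MVK, mevalonate kinase, with 5 CCAAT copies in its window, went the other way. It had 35.2, 50.7, 52.1 and 49.5 CPM in post-hypoxic SCC154 libraries, against 66.5, 87.4, 92.2, 100.3 and 80.5 CPM in post-hypoxic FaDu libraries, and 46.4, 35.8, 35.1, 43.8 and 40.6 CPM in non-hypoxic SCC154, against 71.8, 109, 92.3 and 104 CPM in non-hypoxic FaDu. The lines did not overlap, and MVK was 1.83-fold lower in post-hypoxic (-0.87, SE 0.15, adjusted p = 2.03e-05 by edgeR) and 2.33-fold lower in non-hypoxic SCC154 cells (-1.22, SE 0.15, adjusted p = 1.59e-07 by edgeR).

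PMVK, the kinase of the next step, had 29.1, 11.9, 20.5 and 12.2 CPM in post-hypoxic SCC154 libraries, against 5.45, 9.2, 9.99, 9.49 and 5.72 CPM in post-hypoxic FaDu libraries. Non-hypoxic libraries had 13.3, 18.9, 7.48, 20.4 and 12 CPM in SCC154 and 5.23, 11.3, 9.98 and 15.6 CPM in FaDu. The post-hypoxic groups were apart and the non-hypoxic ones overlapped; PMVK was called higher in post-hypoxic SCC154 (1.22, SE 0.32, adjusted p = 0.00155 by edgeR) and not in non-hypoxic SCC154 (0.47, adjusted p = 0.195 by edgeR). MVD, which decarboxylates mevalonate diphosphate to isopentenyl diphosphate, had 16.8, 29.8, 30.3 and 35.9 CPM in post-hypoxic SCC154 libraries, against 51.8, 69.5, 82.6, 87.9 and 90.6 CPM in post-hypoxic FaDu libraries. The non-hypoxic values of MVD were 23.2, 29.5, 35.6, 37.3 and 45.6 CPM in SCC154 and 49, 74, 64.9 and 93.8 CPM in FaDu. MVD was lower in every SCC154 library than in every FaDu library of the same fraction, with -1.45 (SE 0.22, adjusted p = 4.28e-06 by edgeR) in post-hypoxic and -1.03 (SE 0.22, adjusted p = 0.000193 by edgeR) in non-hypoxic cells.

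IDI1 interconverts the 2 isoprene units from which longer chains are made. It had 52, 19.1, 49.6 and 34.5 CPM in post-hypoxic SCC154 libraries, against 42, 64.4, 63.6, 80.9 and 63.4 CPM in post-hypoxic FaDu libraries, and 35, 30.9, 19, 40.8 and 27.8 CPM in non-hypoxic SCC154, against 39.5, 67.5, 66.4 and 79.8 CPM in non-hypoxic FaDu. The lines overlapped in both fractions. IDI1 was called lower, with -0.68 (SE 0.24, adjusted p = 0.0164 by edgeR) and -1.03 (SE 0.25, adjusted p = 0.000736 by edgeR), and its post-hypoxic call was lost without SCC154 replicate 3 (-0.47) or FaDu replicate 4 (-0.56). FDPS, farnesyl diphosphate synthase, had 77 to 148 CPM in post-hypoxic SCC154 against 144 to 236 CPM in post-hypoxic FaDu and 90.3 to 125 CPM in non-hypoxic SCC154 against 136 to 236 CPM in non-hypoxic FaDu, and was called lower in both (-0.69 and -0.85). Its 8 annotated pseudogenes held 25 counts against 5652 for FDPS. ACAT2, which joins acetyl-CoA units before HMGCS1, had 47.1 to 117 CPM in post-hypoxic SCC154 and 34.3 to 75.5 CPM in post-hypoxic FaDu libraries and was not called (0.49, adjusted p = 0.0884 by edgeR; non-hypoxic 0.12). Without post-hypoxic SCC154 replicate 3 (0.65) or 5 (0.61) or post-hypoxic FaDu replicate 4 (0.67) it was called higher in post-hypoxic cells. Its 3′ end overlaps that of TCP1 on the other strand, which averaged 204 CPM, so its level is uncertain.

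Of the 10 tested genes of the sterol-specific steps, 4 were lower and 2 higher in post-hypoxic SCC154 cells (median -0.26), and 5 lower and 2 higher in non-hypoxic ones (-0.38). Squalene synthase and squalene epoxidase differed in opposite directions. FDFT1, which commits farnesyl units to squalene, had 314, 204, 377 and 287 CPM in post-hypoxic SCC154 libraries, against 104, 152, 153, 181 and 153 CPM in post-hypoxic FaDu libraries. Non-hypoxic cells had 245, 253, 249.6, 347 and 297 CPM in SCC154 and 95.5, 148, 169 and 194 CPM in FaDu. All SCC154 libraries lay above all FaDu libraries, 1.99-fold higher in post-hypoxic (0.99, SE 0.18, adjusted p = 3.59e-05 by edgeR) and 1.84-fold in non-hypoxic cells (0.88, SE 0.18, adjusted p = 0.000199 by edgeR). SQLE, a rate-limiting oxygen-using enzyme of the next step, had 114, 104, 157 and 122 CPM in post-hypoxic SCC154 libraries, against 253, 261, 262, 267 and 307 CPM in post-hypoxic FaDu libraries. In non-hypoxic libraries SQLE had 105, 105, 125, 124 and 132 CPM in SCC154 and 268, 254, 271 and 279 CPM in FaDu. The lines were apart, with SQLE 2.17-fold lower in post-hypoxic (-1.12, SE 0.11, adjusted p = 5.56e-09 by edgeR) and 2.26-fold lower in non-hypoxic SCC154 cells (-1.18, SE 0.11, adjusted p = 1.67e-09 by edgeR).

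TM7SF2, a sterol reductase that acts after lanosterol is demethylated, was the member furthest above FaDu in SCC154. It had 16.8, 10.1, 17.2 and 15.9 CPM in post-hypoxic SCC154 libraries, against 3.27, 5.06, 2.27, 4.13 and 8.36 CPM in post-hypoxic FaDu libraries, and 9.38, 13.1, 12.1, 13 and 9.54 CPM in non-hypoxic SCC154, against 4.75, 3.05, 3 and 3.23 CPM in non-hypoxic FaDu. There was no overlap between the lines, though the FaDu level rested on a few counts per library. TM7SF2 was 3.23-fold higher in post-hypoxic (1.69, SE 0.27, adjusted p = 5.66e-06 by edgeR) and 3.21-fold higher in non-hypoxic SCC154 cells (1.68, SE 0.30, adjusted p = 3.65e-05 by edgeR).

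HSD17B7, a reductase of keto-sterols, had 13.1, 7.76, 11.9 and 15 CPM in post-hypoxic SCC154 libraries, against 22.9, 29, 31.3, 30.5 and 29.9 CPM in post-hypoxic FaDu libraries. Its non-hypoxic levels were 8.88, 9.66, 8.05, 9.98 and 14.5 CPM in SCC154 and 22.3, 25.7, 31.4 and 28.6 CPM in FaDu. The lines did not overlap, and HSD17B7 had -1.25 (SE 0.19, adjusted p = 3.33e-06 by edgeR) in post-hypoxic and -1.38 (SE 0.19, adjusted p = 1.08e-06 by edgeR) in non-hypoxic cells. Its 2 annotated pseudogenes held 117 counts over all libraries against 755 for HSD17B7, so that reads may be split between close copies. DHCR7, the reductase of 7-dehydrocholesterol, had 25, 17.3, 35.3 and 23.6 CPM in post-hypoxic SCC154 libraries, against 35.4, 50.6, 69, 57.8 and 50.1 CPM in post-hypoxic FaDu libraries. Non-hypoxic DHCR7 levels were 22.2, 18.9, 14.9, 32.5 and 30.3 CPM in SCC154 and 34.2, 47.9, 56.9 and 59.3 CPM in FaDu. The highest SCC154 and lowest FaDu libraries nearly met in both fractions, and DHCR7 was called lower at -1.04 (SE 0.23, adjusted p = 0.000302 by edgeR) and -1.04 (SE 0.23, adjusted p = 0.000316 by edgeR).

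The remaining tested sterol genes had smaller log2 fold changes between the 2 lines. EBP, a sterol isomerase, was called lower in non-hypoxic SCC154 cells (126 ± 19.2 CPM, SD, n = 5, against 184 ± 28 CPM, SD, n = 4, in FaDu; -0.54, SE 0.15, adjusted p = 0.00354 by edgeR). In post-hypoxic cells EBP was not called (-0.30, adjusted p = 0.0911 by edgeR), but was without SCC154 replicate 4 (-0.45). SC5D, a desaturase of a late step, was called lower in both fractions by a narrow margin (-0.40, SE 0.16, adjusted p = 0.0308 by edgeR and -0.40, SE 0.16, adjusted p = 0.0332 by edgeR). Its post-hypoxic call was lost without FaDu replicate 2 (-0.38) or 5 (-0.28) or SCC154 replicate 2 (-0.41), 4 (-0.33) or 5 (-0.34). Its non-hypoxic call was lost without FaDu replicate 1 (-0.28), 2 (-0.39) or 3 (-0.39) or SCC154 replicate 3 (-0.35) or 4 (-0.38). LSS, which closes squalene epoxide into lanosterol, and MSMO1 and NSDHL, which strip methyl groups from the ring, were not called in either fraction. Their log2 fold changes were -0.22, -0.22 and -0.21 in post-hypoxic cells and -0.37, -0.18 and -0.02 in non-hypoxic cells, in this order. The 95% interval of LSS ran to -0.80 in post-hypoxic and -0.97 in non-hypoxic cells, so that a 2-fold lower level of LSS lay outside both intervals; its level was 2.98 to 9.54 CPM.

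CYP51A1, the lanosterol demethylase, could not be compared. It had 4 counts in 4 of the 18 libraries, while its 3 annotated pseudogenes had 256 counts in all. In GENCODE v29 its exons lie under those of AC000120.2 on the same strand (chr7, GRCh38), and the sources used here do not say how reads shared by such genes were counted. The near absence of counts therefore does not show that the transcript was absent.

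Within SCC154, the question was whether cells with a past of low oxygen still differed in these genes after culture in normoxia. Of the 28 members 18 were above and 10 below 0, at a median of 0.12 on the log2 scale (0.00 over all genes), and 0 were called. By edgeR, 2 members had an unadjusted p under 0.05, as had 1930 of all 12291 tested genes. The median rested on single libraries: it was -0.02 without post-hypoxic replicate 4 and 0.20 without post-hypoxic replicate 3. ELOVL6 came closest. It had 51.6, 53.7, 53.3 and 51.7 CPM in post-hypoxic libraries, against 68.6, 73.9, 80.5, 64.6 and 64.7 CPM in non-hypoxic libraries. Each post-hypoxic library lay below each non-hypoxic one, the only member whose libraries did not overlap in SCC154, where 5.55% of all genes did not. The log2 fold change of ELOVL6 was -0.42 (SE 0.11, 95% interval -0.66 to -0.18), with an adjusted p = 0.0808 by edgeR. Of the other tools DESeq2 alone put it past the threshold (adjusted p = 0.0457 by DESeq2). A replicate block per line did so too (adjusted p = 0.0131 by edgeR), although numbers of SCC154 libraries were not read as pairs. In FaDu, ELOVL6 had 75.8, 69.9, 78.5, 72.6 and 56.8 CPM in post-hypoxic and 71.8, 64.9, 70.4 and 74.4 CPM in non-hypoxic libraries, a log2 fold change of 0.01. The difference of the 2 effects, -0.43, did not pass (adjusted p = 0.398 by edgeR).

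SCD was the other member with an unadjusted p under 0.05 in SCC154: 224 ± 64.9 CPM (SD, n = 4) in post-hypoxic and 168 ± 19 CPM (SD, n = 5) in non-hypoxic cells, with 0.42 (SE 0.16, adjusted p = 0.207 by edgeR). The replicate block per line called SCD (0.36, adjusted p = 0.0265 by edgeR). Post-hypoxic replicate 3, at 152 CPM, lay below all 5 non-hypoxic libraries, while replicates 2 and 4 lay above them. TM7SF2 had 0.42, PMVK 0.37, IDI1 0.35 and ACLY 0.35, with overlapping libraries. At the lower end MVD had -0.29, INSIG1 -0.21, HMGCS1 -0.17 and SREBF1 -0.16. By role, 5 of 7 mevalonate genes and 8 of 10 sterol genes were above 0, as were 1 of 4 in the SREBP system and 4 of 7 in fatty acid synthesis. Over all genes 6090 of 12291 were above 0, and no gene of these roles was called. The mevalonate and sterol genes were mostly low in post-hypoxic replicate 3 and high in replicate 4, as given further on. The 95% interval lay inside 2-fold for 28 of 28 members (84.0% of all genes) and inside 1.5-fold for 16, so that a 2-fold difference lay outside the interval of each tested member.

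**Figure D3:**
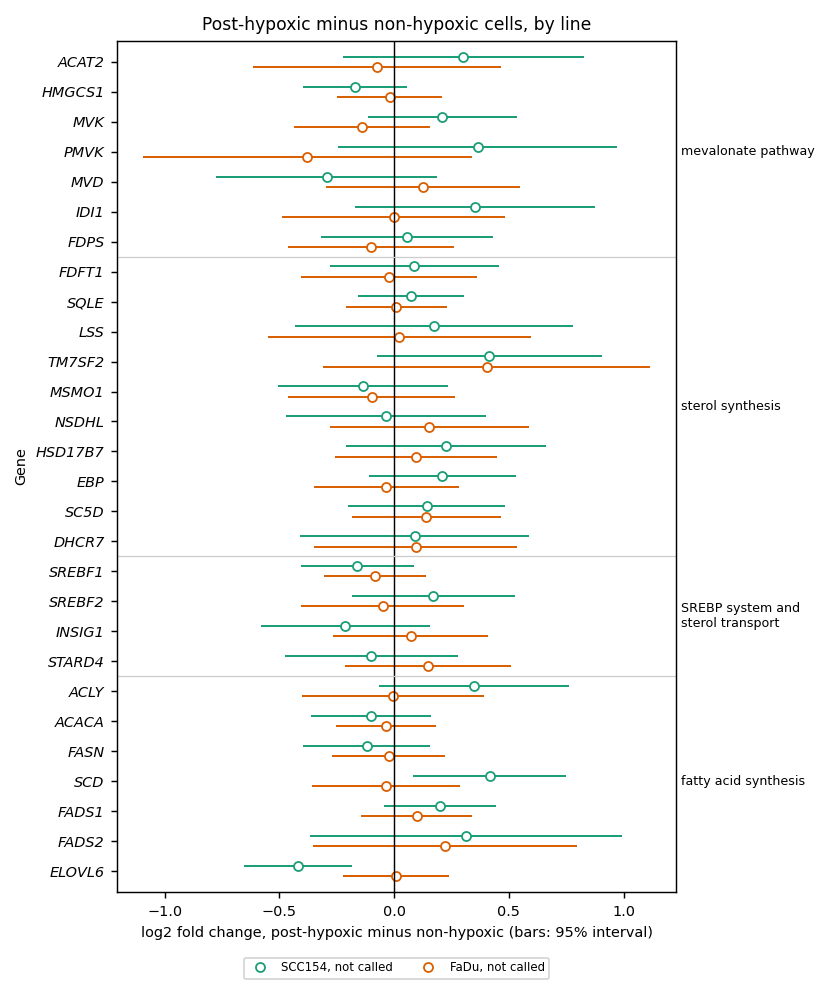
Log2 fold change of post-hypoxic over non-hypoxic cells (x axis) for each tested member (rows, grouped by role), in SCC154 and FaDu; bars are 95% intervals and open points did not pass an adjusted p of 0.05. All points are open, lie between -0.42 and 0.42, and the bars cross 0 except for ELOVL6 and SCD in SCC154.

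In FaDu the members were spread evenly around 0, 13 above and 15 below, at a median of -0.0027 on the log2 scale, and no member's libraries stood apart between the fractions (1.07% of all genes did). The test called 0 members, every edgeR adjusted p was 1, and 0 members had an unadjusted p under 0.05; over all genes 298 had one, while DESeq2 called 3 genes and limma voom 0. The extremes were TM7SF2 (0.40, 95% interval -0.31 to 1.12) and PMVK (-0.38, -1.10 to 0.34), both expressed at low levels in FaDu. The main enzymes were near 0 with narrow intervals: FASN -0.02 (-0.27 to 0.22), ACACA -0.04 (-0.26 to 0.18), SQLE 0.01 (-0.21 to 0.23) and HMGCS1 -0.02 (-0.25 to 0.21). The interval lay inside 2-fold for 26 of 28 members, all but TM7SF2 and PMVK (86.1% of all genes), and inside 1.5-fold for 22. The interaction, the SCC154 effect minus the FaDu effect, called 0 of 28 members and 0.0163% of all genes. Its largest member values were 0.74 for PMVK (adjusted p = 0.608 by edgeR), 0.45 for SCD (adjusted p = 0.521 by edgeR), -0.43 for ELOVL6 and -0.42 for MVD (adjusted p = 0.683 by edgeR).

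Within groups most members moved together in some libraries and not in others. In post-hypoxic replicate 5 of each line, 13 members were below and 15 above the group mean. In post-hypoxic FaDu replicate 1, 26 of 28 members were below the mean of their group (median deviation -0.31 in log2 CPM), and in non-hypoxic FaDu replicate 1, 24 were (-0.26). Post-hypoxic SCC154 replicate 3 had 23 members below its group mean (-0.33), while post-hypoxic SCC154 replicate 4 had 25 above it (0.29). Scaling with TMM factors holds the median deviation of all genes near 0. It was between 0.00 and 0.0075 in each of the 18 libraries. Post-hypoxic SCC154 replicate 3 was lowest of its group for 20 of 28 members. Over all genes it was lowest for 31.2% and highest for 31.2%. Replicate 4 of that group was highest for 17 members and 30.1% of all genes, and lowest for 27.6%. FaDu replicate 1 was lowest for 20 members (27.5% of all genes) in post-hypoxic and 19 (30.5%) in non-hypoxic cells. It was highest for 27.4% and 31.1% of all genes. In post-hypoxic SCC154 replicate 3 the median deviation was -0.46 for mevalonate, -0.50 for sterol, -0.18 for SREBP system and -0.31 for fatty acid genes. In post-hypoxic SCC154 replicate 4 it was 0.24 for mevalonate, 0.36 for sterol, -0.05 for SREBP system and 0.33 for fatty acid genes. The SREBP system thus did not follow the other roles in that library, although SREBF2 did (0.42). In post-hypoxic FaDu replicate 1 all roles were below 0 (-0.44, -0.31, -0.34 and -0.30 in the same order). The 5 members above the group mean in post-hypoxic SCC154 replicate 3 were SC5D (0.24), MVD (0.13), MVK (0.13), ELOVL6 (0.03) and ACACA (0.02). Post-hypoxic SCC154 replicate 3 was the library of lowest total (1654719) and had 2.66% of its counts on mitochondrial transcripts, the highest of the 4, and replicate 4 had 2.19%, the lowest. The 2 FaDu libraries numbered 1 also had the highest mitochondrial share of their groups, 2.38% in post-hypoxic and 2.48% in non-hypoxic cells, where the lowest were 1.67% and 1.74%. The part of depth and RNA quality in these shifts was not tested.

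**Figure D4:**
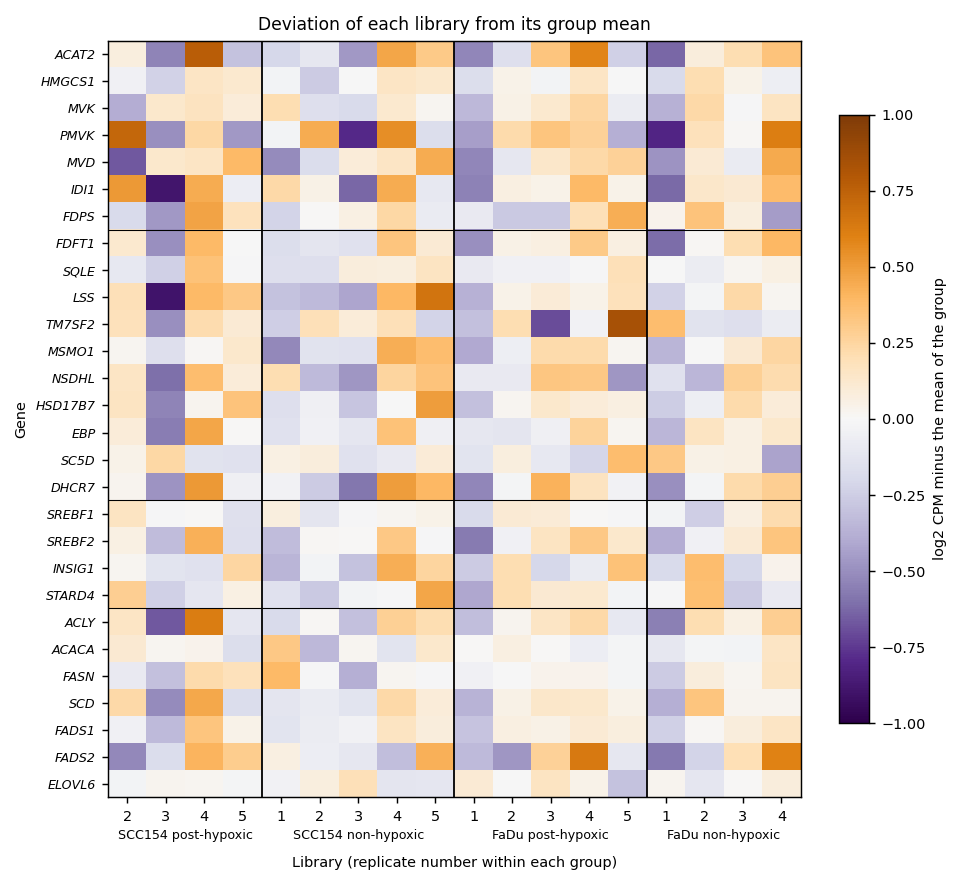
Deviation of each library (columns, by group and replicate number) from the mean of its group in log2 CPM (color, -1 to 1) for the 28 tested members (rows, in the order of the roles). Columns of one color run through most rows in post-hypoxic SCC154 replicates 3 (below) and 4 (above) and in both FaDu libraries numbered 1 (below).

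Summed over the members, levels ran from 1735 to 2810 CPM in post-hypoxic and 1957 to 2458 CPM in non-hypoxic SCC154 libraries, against 2845 to 3701 CPM in post-hypoxic and 2823 to 3678 CPM in non-hypoxic FaDu libraries. Every SCC154 library was below every FaDu library in this sum. The mitochondrial share was 2.19% to 2.66% in post-hypoxic and 2.198% to 2.602% in non-hypoxic SCC154, against 1.67% to 2.38% in post-hypoxic and 1.74% to 2.48% in non-hypoxic FaDu libraries, and its part in the difference between the lines was not tested. Single members ran against it, as FDFT1, HMGCS1 and TM7SF2 show. Of the members, 14 did not overlap between the lines in post-hypoxic cells (11 lower and 3 higher in SCC154; 57.3% of all genes did not overlap) and 16 in non-hypoxic cells (13 lower and 3 higher; 56.5% of all genes).

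Of the 102 tested genes of 7 other lists of lipid handling, 65 (63.7%) were called between the lines in post-hypoxic and 67 (65.7%) in non-hypoxic cells, slightly below the 69.7% and 68.9% of all genes. None (0) of the 102 was called by edgeR between the sorted fractions of either line or in the interaction. Among 13 genes that process or assist SREBPs, 5 were lower and 3 higher in post-hypoxic SCC154 cells, and 6 lower and 3 higher in non-hypoxic ones (medians -0.25 and -0.27). SCAP, the escort that carries SREBPs to the Golgi, had 80.2 ± 10.4 CPM in post-hypoxic SCC154 (SD, n = 4) against 143 ± 13.2 CPM in post-hypoxic FaDu (SD, n = 5), with -0.83 (SE 0.11, adjusted p = 2.78e-07 by edgeR) and -0.90 in non-hypoxic cells. USF1, an E-box factor of lipid genes, was lower at -2.55 and -1.37 but stood at 1.02 ± 1.04 CPM in post-hypoxic SCC154 and 5.64 ± 1.33 CPM in post-hypoxic FaDu. Its relative USF2 was lower in post-hypoxic cells (-1.03), and MBTPS1, the protease of the first SREBP cut, was higher in non-hypoxic cells (0.68).

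Sterol efflux held 2 differences larger than that of any synthesis gene. ABCA1, which loads cholesterol onto apolipoproteins, had 67.2 ± 12.1 CPM in post-hypoxic SCC154 (SD, n = 4) against 2.24 ± 1.67 CPM in post-hypoxic FaDu (SD, n = 5), 30.7-fold higher (4.94, SE 0.31, adjusted p = 2.1e-12 by edgeR). In non-hypoxic cells ABCA1 had 96.5 ± 16.8 CPM in SCC154 and 2 ± 1.35 CPM in FaDu (45.7-fold). ABCG1, the partner pump to high-density lipoprotein, had 63.2 ± 5.08 CPM in post-hypoxic SCC154 against 1.75 ± 0.494 CPM in post-hypoxic FaDu (5.14, SE 0.37, adjusted p = 2.56e-11 by edgeR) and 5.23 (SE 0.41, adjusted p = 1.11e-10 by edgeR) in non-hypoxic cells. Of the 14 genes of that list 5 were higher and 6 lower in post-hypoxic, and 5 higher and 5 lower in non-hypoxic SCC154 cells (medians -0.13 and -0.11). MYLIP, a sterol-induced ubiquitin ligase, was lower in post-hypoxic cells (-1.13), and NPC2, a lysosomal cholesterol binder, in non-hypoxic cells (182 ± 4.16 CPM, SD, n = 5, in SCC154 and 363 ± 35 CPM, SD, n = 4, in FaDu).

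Of 7 further sterol factors 4 were lower and 1 higher in SCC154 in each fraction (medians -0.51 in post-hypoxic and -0.58 in non-hypoxic cells). LBR, a nuclear envelope protein with the same sterol reductase activity as TM7SF2, was lower, with 80.1 ± 7.89 CPM in post-hypoxic SCC154 against 229.6 ± 16 CPM in post-hypoxic FaDu (-1.52, SE 0.10, adjusted p = 4.86e-12 by edgeR) and 96.3 ± 6.17 CPM in non-hypoxic SCC154 against 243 ± 21.3 CPM in non-hypoxic FaDu (-1.33, SE 0.10, adjusted p = 2.32e-11 by edgeR). The pair thus differed between the lines in opposite directions. POR, which passes electrons to CYP51A1 and SQLE, was lower at -2.17 and -1.94, and SEC14L2, a lipid-binding protein, higher at 1.28 and 0.94, in post-hypoxic and non-hypoxic cells. In the isoprenoid branches 6 of 14 genes were lower and 3 higher in post-hypoxic, and 4 lower and 3 higher in non-hypoxic SCC154 cells (medians -0.19 and -0.11). Among them RABGGTB, a subunit of the Rab prenyltransferase, had -1.44 and -1.51, PDSS1, which makes the ubiquinone side chain, -1.81 and -1.32, and FNTA, a subunit of farnesyltransferase, 1.37 and 1.23. In the remaining fatty acid list 7 of 23 genes were lower and 5 higher in post-hypoxic, and 8 lower and 8 higher in non-hypoxic cells (medians 0.02 and -0.20). ME1, which makes NADPH for FASN, had 7.22 ± 1.02 CPM in post-hypoxic SCC154 against 41.6 ± 2 CPM in post-hypoxic FaDu (-2.51, SE 0.23, adjusted p = 1.51e-09 by edgeR). HSD17B12 and ELOVL5, both of chain elongation, had -1.51 and -1.57 in post-hypoxic and -1.69 and -1.42 in non-hypoxic cells, in this order.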

How the data were processed

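The authors deposited whole-number counts of 3′ tags per gene symbol (QuantSeq 3′ kit, per the labels' protocols). Per the submitters' processing notes, reads and counts involved HISAT2 2.2.1 and hg38, featureCounts 1.5.1, UMI-tools 1.1.5, Trimmomatic 0.39, FastQC 0.11.9 and DESeq2, with no role or order stated. The sources used here give neither strand setting nor annotation nor the handling of duplicates and of reads shared by genes. A tag count does not depend on transcript length, and levels are compared within a gene only. Groups and replicate numbers came from the sample titles. Counts were tested with edgeR 4.0.16 in R 4.3.3: TMM factors, filterByExpr, 1 quasi-likelihood model of 4 group means over 18 libraries (14 residual degrees of freedom, common biological coefficient of variation 0.148), Benjamini-Hochberg adjustment over 12291 genes. SE is the log2 fold change divided by the square root of F, and 95% intervals use the t distribution. Log2 CPM used a prior count of 2. The fit was tested on simulated counts with changes set in a single group. These held no other difference between the lines and no shifts shared by the genes of a library. That test therefore does not cover such features of the real counts.

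No 2 replicates of a group agreed within sampling noise (chi-square per degree of freedom 1.77 to 10.7 over 32 pairs). Same-numbered FaDu libraries deviated together, with correlations of 0.45, 0.18, 0.21 and 0.44 for numbers 1 to 4, each over 0.1. Number 3 nevertheless correlated best with number 4. In a further fit with replicate blocks they were taken as paired from the data, not from the labels. That fit called no member in FaDu. The FaDu values given above come from the fit without blocks. Alternatives were DESeq2 1.42.0, limma 3.58.1 (voom), upper-quartile factors, other filters, replicate blocks and leaving out libraries. The 29 members and all lists were chosen with earlier results of these data known. Named genes were all members, with values per library for up to 10 members of largest difference per comparison of the lines and for HMGCS1, SQLE, INSIG1, SREBF1, SREBF2, SCD and FASN; of the 7 other lists (113 genes, 102 tested), the called genes of largest difference, up to 3 per list and comparison. FDFT1 and ELOVL6 were given per library after their values were seen. Gene positions are those of GENCODE v29, promoters those of RefSeq (GRCh38.p14). Intervals on counts cover counting error only.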

Additional observations from a re-analysis of the deposited data

Results flagged for a closer look

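Single libraries stood apart from the rest of their group in 7 of the 112 groups of member values examined, and chance gives about 1 in 20. Post-hypoxic FaDu replicate 1 was far below the other 4 for FADS1 (309.0 CPM against 393 to 409 CPM), HSD17B7 (22.89 CPM against 28.99 to 31.3 CPM) and SCD (351.5 CPM against 468 to 498 CPM). Post-hypoxic FaDu replicate 5 was far above them for SQLE, at 306.6 CPM against 253 to 267 CPM. Non-hypoxic FaDu replicate 1 was highest for TM7SF2, at 4.754 CPM against 2.995 to 3.24 CPM, a difference of a few counts. In SCC154, MVK was low in post-hypoxic replicate 2 (35.22 CPM against 49.5 to 52.1 CPM) and EBP high in non-hypoxic replicate 4 (160.1 CPM against 113 to 121 CPM).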

How the results depend on the processing

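The number of members called between the sorted fractions of SCC154, 0, became 1 with DESeq2 (ELOVL6) and 2 with a replicate block fitted per line (ELOVL6 -0.42, adjusted p = 0.0131, and SCD 0.36, adjusted p = 0.0265, both by edgeR). Numbers of SCC154 libraries were not read as pairs (correlations 0.03 to 0.40, 1 of them under 0.1; replicates 3, 4 and 5 correlated best with their own number and 2 did not), and the cause was not tested. Over all genes that block called 1052 in SCC154, against 93 without it, and 224 in the interaction, against 2. In FaDu the block called 0 members and the count of all genes was 7, against 0; it changed no call of a member. With a block shared across the lines, 0 members were called in SCC154, FaDu or the interaction, 24 between the lines in post-hypoxic and 21 in non-hypoxic cells.

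Leaving out each library in turn gave 0 members in SCC154, FaDu and the interaction in all 18 fits, 20 to 22 between the lines in post-hypoxic and 19 to 20 in non-hypoxic cells. Upper-quartile factors, limma voom, other filters, fits of the compared libraries alone, and 2 settings chosen after seeing the data (without non-hypoxic SCC154 replicate 1 and post-hypoxic SCC154 replicate 3, and without both FaDu libraries numbered 1) gave 0, 0, 0, 20 to 22 and 19 to 20 members in the same order. No called value changed sign. Values that were uncalled under both settings changed sign 17 times of 784 in SCC154, 61 of 783 in FaDu, 58 of 756 in the interaction, and 5 and 17 of 756 between the lines in post-hypoxic and non-hypoxic cells. Depth limits LSS, PMVK, TM7SF2 and FADS2 most, none of which exceeded 29.1 CPM in any library. The block per line was not run for the comparisons of the lines, whose effect it absorbs.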

Other observations

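Among genes of lipid storage, the share called between the lines was near that of all genes (66.7% against 69.7% in post-hypoxic and 73.3% against 68.9% in non-hypoxic cells). Of 15 genes of glycerolipid synthesis and lipid droplets, 7 were higher and 3 lower in post-hypoxic SCC154 than in post-hypoxic FaDu cells, and 9 higher and 2 lower in non-hypoxic cells, by edgeR (median log2 fold changes 0.37 and 0.42, against 0.01 and -0.01 over all genes). DGAT1, which makes triglycerides, had 43.9 ± 5.12 CPM in post-hypoxic SCC154 (SD, n = 4) against 7.39 ± 1.68 CPM in post-hypoxic FaDu (SD, n = 5), with 2.55 (SE 0.21, adjusted p = 2.18e-10 by edgeR) and 2.69 (SE 0.22, adjusted p = 2.18e-10 by edgeR) in non-hypoxic cells. DGAT2, the other such enzyme, was higher at 2.81 and 3.11, with 4.1 ± 1.67 CPM in post-hypoxic SCC154 and 0.538 ± 0.549 CPM in post-hypoxic FaDu. PLIN2, the main coat protein of lipid droplets, was nearly without counts in SCC154. It had 1 count over the 4 post-hypoxic and 3 counts over the 5 non-hypoxic SCC154 libraries, against 187 to 280 counts in each post-hypoxic and 235 to 340 in each non-hypoxic FaDu library. The ratio of SCC154 to FaDu was 0.00102 in post-hypoxic cells (95% counting interval 2.58e-05 to 0.00569) and 0.0022 in non-hypoxic cells (0.000452 to 0.00643).

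Among genes of fatty acid oxidation, the share called was below that of all genes, at 62.5% in post-hypoxic and 56.2% in non-hypoxic cells. Of 16 tested genes 6 were lower and 4 higher in post-hypoxic SCC154 than in post-hypoxic FaDu cells, and 7 lower and 2 higher in non-hypoxic cells (medians -0.08 and -0.20). CPT1A, the gate of fatty acid entry into mitochondria, had 97.8 ± 18.4 CPM in post-hypoxic SCC154 (SD, n = 4) against 486 ± 16.8 CPM in post-hypoxic FaDu (SD, n = 5), 4.95-fold lower (-2.31, SE 0.11, adjusted p = 2.93e-14 by edgeR), and -2.37 in non-hypoxic cells. The thiolase ACAA2 was lower at -1.50 and -1.83, the isomerase ECI2 at -1.76 in post-hypoxic cells, and CPT2, which completes the entry, at -1.13 in non-hypoxic cells.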
